A study of Mus musculus with 6 samples.

Results

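The genes next to Slc26a4 on mouse chromosome 12 were followed one by one in thyroid RNA of mice at postnatal day 15. Slc26a4 encodes pendrin, an anion exchanger that sits in the thyroid on the follicular cells' face towards the colloid. The arrays came from 3 samples labelled heterozygous and 3 labelled knockout for Slc26a4, so every animal carried at least 1 mutant allele and no wild-type sample was among them. Each array is called by its genotype with the number its label carries, which runs 1, 3 and 5 for the heterozygous and 2, 4 and 6 for the knockout samples. The sources used here do not give the kind of mutant allele, the strain, the sex or whether animals were pooled, and nothing says that the 3 samples of a genotype came from separate animals, so the spread between them may be technical.

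The 10 genes were chosen by their chromosomal position: Tmem18, Dld, Slc26a3 and Cbll1 lie on one side of Slc26a4 and Bcap29, Cog5, Gpr22, Hbp1, Prkar2b and Pik3cg on the other. They are 10 of the 18194 genes that the array's annotation names by a single symbol, and all 24 probe sets assigned to one of them alone were taken. Tmem18 was also selected on its difference between knockout and heterozygous arrays, and the whole list was drawn up with results of these arrays in view. The differences between the genotypes below are therefore a description, with an error and no test. The list is not an unbroken run. In the RefSeq gene order Cbll1, Slc26a3 and Dld are coding genes 1 to 3 before Slc26a4, Tmem18 is number 9, and Lamb1, Fam110c, Sh3yl1, Acp1 and Alkal2 lie between Dld and Tmem18. On the other side the list holds the coding genes 1 to 7 after Slc26a4 with the exception of Dus4l, number 2. Gpr22 lies wholly inside Cog5 on the opposite strand, and Cog5 overlaps the end of Hbp1, also on the opposite strand; whether a probe set lies in a shared stretch was not tested.

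Neighbours of a targeted gene are of interest because a mutant allele is inherited together with the DNA on either side of it. Where a line was made in embryonic stem cells of one mouse strain and crossed to another, that DNA can stay that of the stem cells in every animal that carries the mutant allele, and the knockouts then carry it on both chromosomes and the heterozygotes on one. A gene in such a stretch can differ between genotypes through sequence of its own, in its transcript level or only in how well its transcript binds the probes. On these arrays the loss of pendrin, a linked sequence difference in expression and a linked difference under a probe cannot be told apart, since all follow the genotype.

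The promoters of 9 of the 10 genes are in the RefSeq table for GRCm38.p6, as windows of 250 bases before to 50 bases after the start. Of these 4 are shown in full, 5′ to 3′ on the gene's own strand: Tmem18 and Prkar2b, Slc26a3 and Gpr22, because Prkar2b and Slc26a3 hold the most and the fewest CG dinucleotides of the listed genes and the results turn on Tmem18. Capitals mark CG dinucleotides and matches to TATAAA on either strand.
Tmem18 (GRCm38.p6, plus strand, chr12:30584193-30584492): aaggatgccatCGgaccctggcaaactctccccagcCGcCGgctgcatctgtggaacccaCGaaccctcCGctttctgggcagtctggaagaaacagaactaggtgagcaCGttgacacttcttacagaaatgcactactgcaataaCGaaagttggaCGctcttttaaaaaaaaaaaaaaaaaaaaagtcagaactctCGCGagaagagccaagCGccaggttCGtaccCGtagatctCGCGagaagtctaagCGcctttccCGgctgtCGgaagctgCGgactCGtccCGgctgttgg
Prkar2b (GRCm38.p6, minus strand, chr12:32061228-32061527): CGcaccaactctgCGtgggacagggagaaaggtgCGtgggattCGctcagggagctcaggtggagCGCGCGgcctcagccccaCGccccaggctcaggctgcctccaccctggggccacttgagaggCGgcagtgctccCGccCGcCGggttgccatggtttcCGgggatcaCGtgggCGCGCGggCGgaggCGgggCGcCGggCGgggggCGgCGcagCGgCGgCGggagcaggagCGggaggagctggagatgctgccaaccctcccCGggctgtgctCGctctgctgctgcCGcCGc
Slc26a3 (GRCm38.p6, plus strand, chr12:31437969-31438268): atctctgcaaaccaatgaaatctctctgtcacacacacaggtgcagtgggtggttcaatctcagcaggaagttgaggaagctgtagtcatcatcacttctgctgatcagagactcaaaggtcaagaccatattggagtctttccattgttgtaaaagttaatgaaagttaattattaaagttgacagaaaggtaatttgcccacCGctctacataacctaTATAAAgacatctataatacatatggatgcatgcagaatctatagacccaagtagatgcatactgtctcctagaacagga
Gpr22 (GRCm38.p6, minus strand, chr12:31713834-31714133): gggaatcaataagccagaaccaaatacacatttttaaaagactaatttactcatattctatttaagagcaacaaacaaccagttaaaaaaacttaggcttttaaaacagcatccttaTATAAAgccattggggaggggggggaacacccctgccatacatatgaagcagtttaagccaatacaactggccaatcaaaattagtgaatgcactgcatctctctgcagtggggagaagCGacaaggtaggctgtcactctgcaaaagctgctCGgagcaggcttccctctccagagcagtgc

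The promoter of Tmem18 held 21 CG dinucleotides and that of Prkar2b 32 in the window shown, against 1 for Slc26a3 and 2 for Gpr22. Of the 32851 promoters in the table, 24.8% held at least as many as Tmem18 and 9.52% at least as many as Prkar2b, and 14.1% held no more than Slc26a3. The other windows held 16 in Hbp1, 18 in Dld, 24 in Cbll1, 27 in Cog5, 28 in a further start of Prkar2b, and 4 and 5 at the 2 starts of Pik3cg. Slc26a4 itself held 6. A match to TATAAA stood in the windows of Slc26a3 and Gpr22 and in that of Slc26a4, and in none of the other listed windows; 13.6% of all promoters have one. The Tmem18 window holds the palindrome CTCGCGAG at 2 places. That motif was looked for after its sequence had been read, 0.919% of all promoters have it at least once and 0.0670% at least 2 times, and it stood in 1 of the 11 listed windows. These matches describe the letters of the windows and nothing more.

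**Figure D1:**
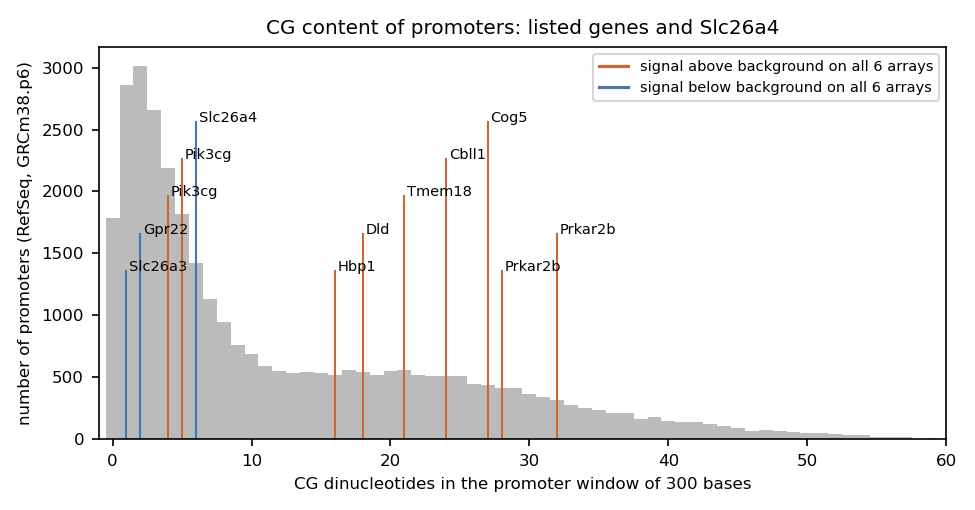
Distribution of the number of CG dinucleotides per promoter window of 300 bases over the 32851 RefSeq promoters (bars), with lines for the listed genes and Slc26a4, coloured by whether the gene's brightest probe set read above or below background on the 6 arrays. Slc26a3, Gpr22 and Slc26a4, all below background, hold 1, 2 and 6, and the genes above background hold 16 to 32, apart from Pik3cg with 4 and 5.

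The deposited values are array signals on a linear scale. The highest signal of 27 control probe sets for bacterial transcripts, 22.9, was taken as the background, and between 67.5% and 73.8% of the probe sets of an array were above it. Differences are given as knockout minus heterozygous on the scale log2(signal + 16.7), with the standard error (SE) of a limma fit over the 27022 probe sets bright enough to be tested; this scale understates the change of dim genes. The tissue label was borne out by thyroid markers, with Tg between 11795 and 13805, Pax8 between 2431 and 3402 and Slc5a5 between 1291 and 3400 over the 6 arrays. Other tissues were present too and varied: Pth of the parathyroid read 165 to 11058, Myh4 of skeletal muscle 199 to 6311, Dntt of thymocytes 6.09 to 1780 with its peak on knockout 4, and Ucp1 of brown fat 9211 to 11977. In such bulk tissue fewer cells of a type and less RNA per cell cannot be told apart.

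Slc26a4 was read by probe set 1419725_at at 4.997, 4.59 and 12.1 on heterozygous 1, 3 and 5 and at 7.29, 2.10 and 15.7 on knockout 2, 4 and 6. All 6 values lay below background, so this probe set does not check the genotype labels.

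Tmem18 encodes a small membrane protein of the nuclear envelope whose locus is known from human studies of body weight. Its only probe set, 1454836_at, read 583, 455 and 458 on heterozygous 1, 3 and 5 and 361, 287 and 329 on knockout 2, 4 and 6. The groups do not overlap: the lowest heterozygous value, on heterozygous 3, lies above the highest knockout value, on knockout 2. The means were 499 ± 72.7 (SD, n = 3) and 326 ± 37.2 (SD, n = 3), so the knockout mean was 65.3% of the heterozygous one. On the log2 scale the difference was -0.59 ± 0.16 (SE), with a 95% interval of -0.96 to -0.21. It was the difference that brought the gene into the list and is not tested here. Among samples numbered 1 to 3, with 1 knockout, it was -0.49. Among those numbered 4 to 6, with 1 heterozygous sample, it was -0.55. With any 1 array left out it lay between -0.66 and -0.47. As the groups do not overlap, none of these values could have changed sign. With a single probe set, no second set of probes could be set beside it. The summed signal of 6 thyroid markers overlapped between the genotypes, at 20922 to 26126.5 and 21238 to 24426. That of 4 skeletal muscle markers overlapped too, at 7858 to 15279 and 2111 to 15224. On average all 4 muscle markers were lower in knockouts (median -0.65), and 4 of the 6 thyroid markers were lower (median -0.07). Each single marker of these lists overlapped between the genotypes. The part of tissue content in the values of Tmem18 was not tested.

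**Figure D2:**
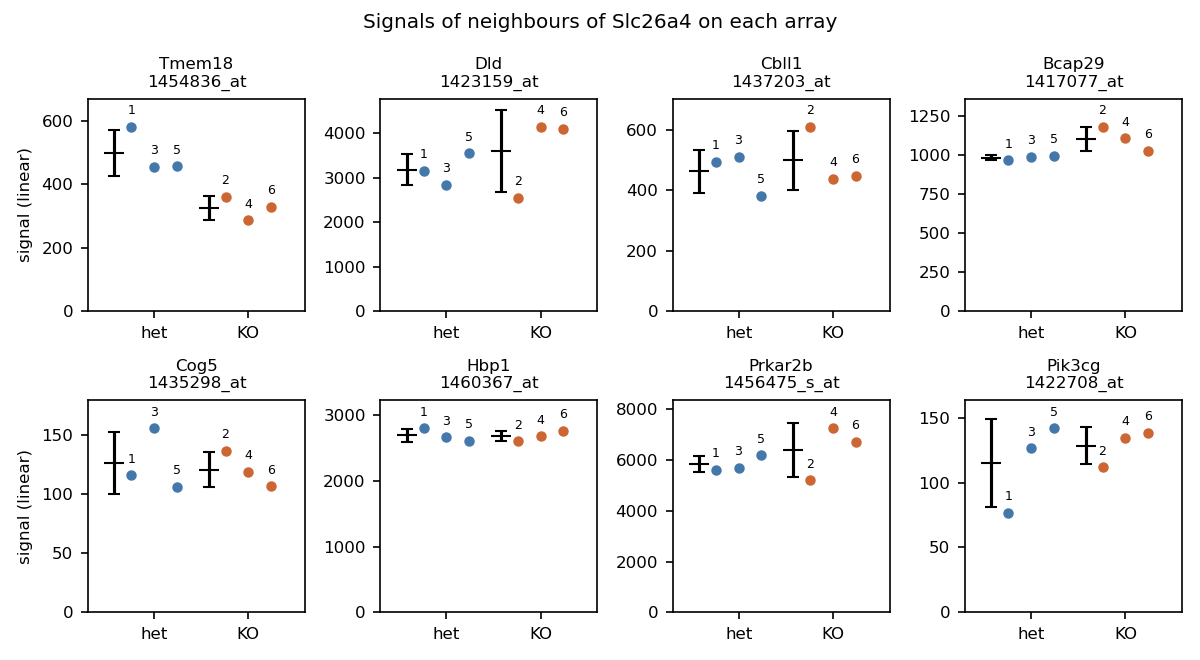
Signal (linear scale) of the brightest tested probe set of each of the 8 listed genes that passed the filter, by genotype; points are arrays with their sample numbers, and the bar beside them is the mean with the SD of 3 arrays. The groups do not overlap for Tmem18 (knockout lower) and Bcap29 (knockout higher) and overlap for the other genes.

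The coding genes between Tmem18 and Slc26a4 that were measured showed smaller differences. Acp1, a small phosphatase, read 2559 ± 248 and 2624 ± 131 (SD, n = 3 each) in heterozygous and knockout samples, a difference of 0.04 ± 0.10 (SE). Sh3yl1 differed by -0.04 ± 0.22, Fam110c by -0.24 ± 0.24 and Lamb1, a laminin chain of basement membranes, by 0.03 ± 0.08. Beyond Tmem18, Sntg2 differed by -0.16 ± 0.25 and Pxdn, a peroxidase of the matrix, by 0.09 ± 0.10. In all 6 of these genes the arrays of the genotypes overlapped at the brightest tested probe set, the only 1 given here. Acp1 had 5 tested probe sets, Lamb1 3 and Fam110c 2. They were taken by their place on the chromosome, after the value of Tmem18 was known.

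Dld encodes dihydrolipoamide dehydrogenase, the subunit shared by the mitochondrial dehydrogenase complexes for pyruvate, 2-oxoglutarate and branched-chain keto acids and by the glycine cleavage system. Its bright probe set, 1423159_at, read 3152, 2846 and 3546 on heterozygous 1, 3 and 5 and 2545, 4151 and 4103 on knockout 2, 4 and 6. The groups overlap, with knockout 2 the lowest of all and knockouts 4 and 6 the highest. The difference was 0.15 ± 0.19 (SE). A further probe set, 1433263_at, read 0.460 to 2.91, below background on every array.

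Cbll1, also called Hakai, is a ubiquitin ligase that acts on E-cadherin and a component of the complex that writes N6-methyladenosine on messenger RNA. Probe set 1437203_at read 495, 511 and 381 on the heterozygous and 611, 439 and 448 on the knockout arrays. Heterozygous 5 was the lowest and knockout 2 the highest, so the groups overlap. The difference was 0.10 ± 0.18 (SE), and 1421122_at gave 0.13 ± 0.18 with heterozygous values of 280.3 to 396 and knockout values of 361 to 448.

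Slc26a3, the chloride and bicarbonate exchanger of the gut that is a paralog of Slc26a4 and lies beside it, was read by 4 probe sets. All of them stayed between 0.195 and 16.5 on the 6 arrays, below background. No difference is given for such values. Cdx2, an intestinal transcription factor, read 14.3 to 24.8.

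Bcap29 encodes a membrane protein of the endoplasmic reticulum related to Bcap31, which takes part in the export of membrane proteins. Its only probe set, 1417077_at, read 967, 992 and 996 on heterozygous 1, 3 and 5 and 1185, 1108 and 1030.2 on knockout 2, 4 and 6. Every knockout value lies above every heterozygous one, by a gap that is small beside the spread of the knockouts. The means were 985 ± 16.0 and 1108 ± 77.5 (SD, n = 3 each), which makes 0.16 ± 0.11 (SE) on the log2 scale, and the 95% interval runs from -0.08 to 0.41. Among sample numbers 1 to 3 it was 0.27 and among 4 to 6 it was 0.10, and without knockout 2 it was 0.12.

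Cog5 is a subunit of the conserved oligomeric Golgi complex, which tethers vesicles in the Golgi. Probe set 1435298_at read 116, 156 and 106 on the heterozygous and 137, 119 and 107 on the knockout arrays, a difference of -0.04 ± 0.21 (SE). The 3 highest values belong to sample numbers 2, 3 and 4, of both genotypes. The dimmer 1440019_at read 22.6 to 61.0, with knockout 4 lowest and knockout 6 highest, and was not tested, and 1445806_at read 5.08 to 8.89.

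Gpr22, which lies inside Cog5, is an orphan receptor coupled to G proteins and known from brain and heart. Probe set 1434672_at read 16.4, 17.2 and 11.95 on the heterozygous and 12.3, 6.68 and 21.1 on the knockout arrays, and 1434673_at read 1.10 to 5.61. No value of either passed the background. The heart markers Myh6 and Nppa read 1.78 to 17.6 and 14.4 to 26.6. Snap25 of neurons and endocrine cells read 433 to 1301, while Syt1 of neurons read 17.8 to 41.0 and fell under the filter.

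Hbp1 is a transcriptional repressor of the HMG-box family that restrains the cell cycle and Wnt target genes. Its brightest probe set, 1460367_at, read 2804, 2666.5 and 2613 on the heterozygous and 2602, 2683 and 2764 on the knockout arrays; the values of both genotypes lie in one narrow band. The difference was -0.01 ± 0.08 (SE), with an interval of -0.19 to 0.18. Probe sets 1438430_at and 1432143_a_at gave -0.07 ± 0.13 and -0.02 ± 0.14. The dimmest of the 4, 1446269_at, stood away from them at 0.39 ± 0.24, with 60.5, 44.7 and 57.1 on the heterozygous and 57.2, 80.8 and 92.4 on the knockout arrays. Its groups overlap through knockout 2, and the interval of -0.16 to 0.94 includes 0.

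Prkar2b encodes the type II beta regulatory subunit of protein kinase A, the kinase through which cyclic AMP acts, and it is abundant in fat and brain. Probe set 1456475_s_at read 5623, 5692 and 6193 on heterozygous 1, 3 and 5 and 5203, 7261 and 6717 on knockout 2, 4 and 6. The groups overlap, and the 3 highest arrays are the samples numbered 4, 5 and 6. Its difference between genotypes was 0.12 ± 0.12 (SE), that of 1438664_at was 0.13 ± 0.13 and that of 1430640_a_at was 0.15 ± 0.34. The last was the most variable, at 1049, 719.6 and 1326 on the heterozygous and 647, 1299 and 1625 on the knockout arrays.

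Pik3cg encodes the catalytic subunit of phosphoinositide 3-kinase gamma, an enzyme of leukocytes that acts downstream of receptors coupled to G proteins. Probe set 1422708_at read 76.8, 127 and 142 on the heterozygous and 112, 134 and 138 on the knockout arrays, with a difference of 0.17 ± 0.24 (SE). Heterozygous 1 was the lowest by far, and without it the difference was -0.06. Probe set 1422707_at gave 0.30 ± 0.24 with values of 66.9 to 115 and 97.6 to 118, where only heterozygous 5 reached into the knockout range. The summed signal of 5 macrophage and leukocyte markers was 10439.7 to 11934 in heterozygous and 10653 to 12957 in knockout samples. On average 4 of the 5 were higher in knockouts and 1 lower. Ctss alone did not overlap, with the knockouts higher by 0.25 ± 0.11 (SE), beside 3.68% of all probe sets tested without overlap. The part of these markers in the values of Pik3cg was not tested.

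In the fit over all probe sets, limma called 0 of the 15 tested probe sets of the listed genes at an adjusted p of 0.05, as it called 0 of all 27022, or 0% of them. Before adjustment 138 of all 27022 had a limma p under 0.05. A test with a separate variance for each probe set also called 0, with 283 under 0.05 before adjustment. With no difference anywhere a share of about 0.05 would be expected, and both counts are below that share. Nothing is read from them. The other 9 probe sets, among them all of Slc26a3 and Gpr22, fell under the filter. Of the 15, 10 were higher and 5 lower in knockouts on average, and those other than Tmem18 lay between -0.07 and 0.39. The arrays of the genotypes did not overlap for 2 of the 15, Tmem18 and Bcap29, beside 3.68% of all probe sets tested, and the knockouts were lower in 1, beside 2.04%. Since Tmem18 was chosen on this contrast, nothing is read from these counts. With 1 probe set per gene, 5 of the 8 genes were higher and the median difference was 0.11, against 6260 of 12904 genes and a median of -0.004 over all genes tested. That median was 0.12 without Tmem18 and 0.04 with the sample numbers as a covariate, an alternative chosen after seeing the data. It shrank to 0.02 without knockout 4, and to 0.06 without heterozygous 1, 0.06 without knockout 6, 0.07 without knockout 2 and 0.07 without heterozygous 5.

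**Figure D3:**
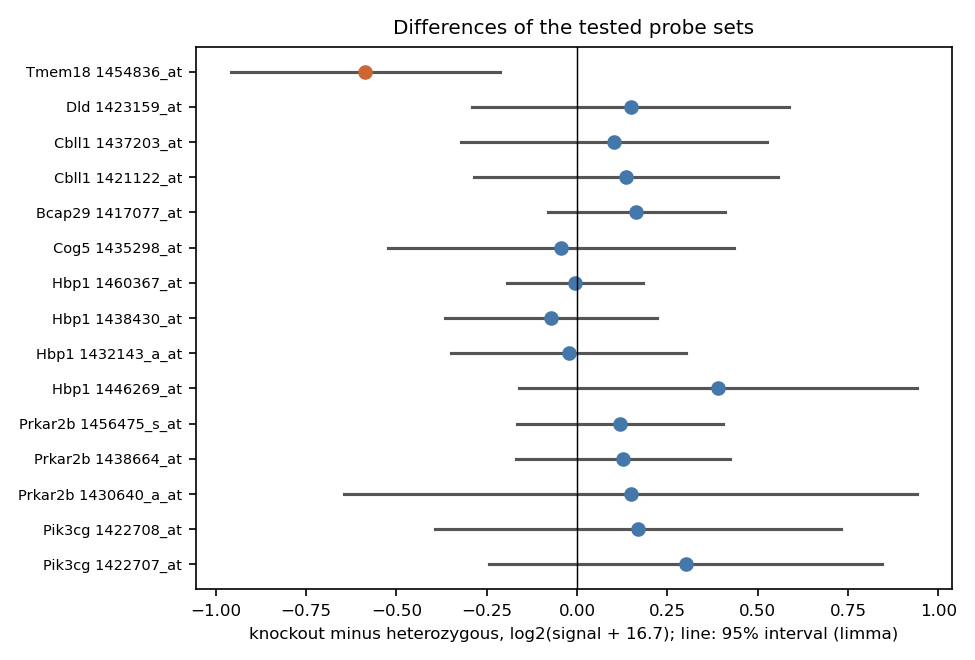
Knockout minus heterozygous on the scale log2(signal + 16.7) for the 15 tested probe sets of the listed genes, as points with 95% intervals from limma. The interval includes 0 for 14 of them, and only that of Tmem18, the gene selected on this difference, lies wholly to one side, from -0.96 to -0.21.

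In a wider stretch of the chromosome about as many genes were higher as lower in knockouts. Differences of single genes can go either way, so such counts cannot tell whether single genes differ. Of the 50 nearest measured genes on each side of Slc26a4, 100 in all, 49 were higher and 51 lower in knockouts, with a median difference of -0.003, and limma called 0 of them. Before Slc26a4 25 were higher and 25 lower, and after it 24 were higher and 26 lower. Of the other 363 measured genes of the chromosome 155 were higher and 208 lower, with a median of -0.01. Tmem18 had the largest difference in size of the 100, but it was selected on this difference and nothing is read from its place. The other listed genes ranked between place 17, for Pik3cg, and place 99, for Hbp1. The arrays did not overlap for 3 of the 100, Tmem18, Bcap29 and Dock4, beside 3.56% of all genes tested and 6.06% of the other 363. Dock4, an activator of small GTPases that is number 29 after Slc26a4, read 620.3 ± 116 and 769 ± 8.21 (SD, n = 3 each), a difference of 0.32 ± 0.16 (SE). The other genes of the stretch with the smallest p were the transcription factor Mycn at -0.40 ± 0.24, the disulphide isomerase relative Agr3 at -0.24 ± 0.15 and the kinase anchor Akap6 at -0.41 ± 0.29 (SE; limma, adjusted p = 1.0 for each).

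**Figure D4:**
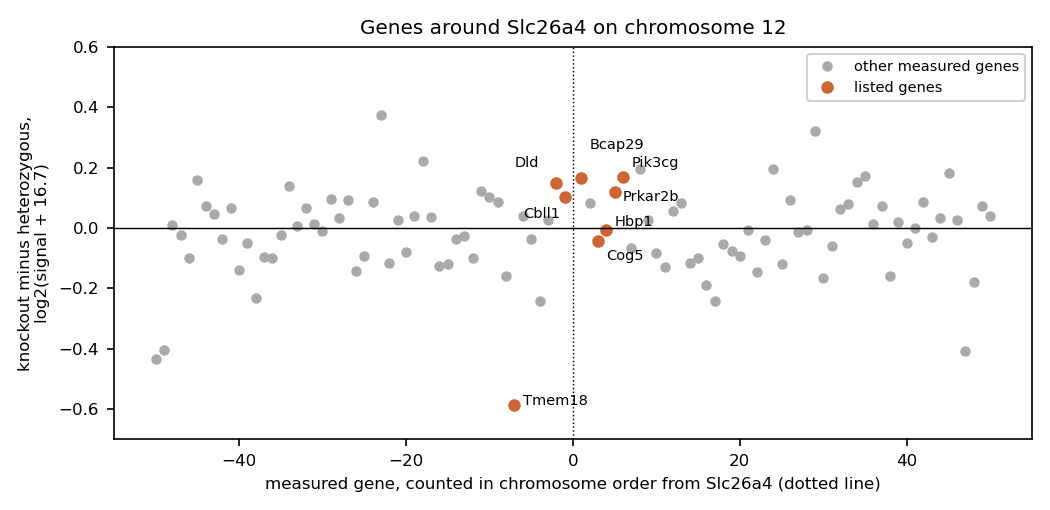
Knockout minus heterozygous on the scale log2(signal + 16.7) for the 50 nearest measured genes on each side of Slc26a4, in chromosome order, with the listed genes in orange. Of the 100 genes 49 lie above and 51 below 0, and Tmem18, the gene selected on this difference, is the farthest from 0, at -0.59.

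The sample numbers separated some of the listed genes where the genotype did not. For 6 of the 15 tested probe sets the samples numbered 4, 5 and 6 all read above those numbered 1, 2 and 3, beside 11.6% of all probe sets tested. Those 6 belong to Prkar2b (3), Pik3cg (2) and Dld (1). In 1, 1437203_at of Cbll1, samples 4 to 6 all read lower, and 24.7% of all probe sets tested were split by number in one direction or the other. The labels do not say what the numbers stand for, and each side holds both genotypes, 2 heterozygous with 1 knockout and 1 heterozygous with 2 knockouts. Dld was higher by 0.47 in samples 4 to 6 and the brightest Prkar2b probe set by 0.29, on the log2 scale. With the numbers as a covariate the genotype difference of Dld was -0.01 ± 0.11 (SE) and that of Prkar2b 1456475_s_at 0.03 ± 0.08, and 1430640_a_at turned to -0.14 ± 0.20. Within numbers 1 to 3 the difference of Dld was -0.23 and within 4 to 6 it was 0.22.

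The partners of Dld were split in the same way. Over all probe sets tested, 11.6% were higher without overlap in samples 4 to 6 and 24.7% were split either way. Of 10 measured genes of the lipoamide dehydrogenase complexes, 9 read higher on all of samples 4 to 6 than on any of 1 to 3, with a median step of 0.41, among them the subunits Dlat (0.49), Bckdha (0.67) and Bckdhb (0.63). Between genotypes all 10 were higher in knockouts on average, with a median of 0.09, and 0 passed. That direction did not hold within the numbers: among samples 1 to 3, 9 of the 10 were lower in the knockout and Dlat alone higher (range -0.26 to 0.06), and among samples 4 to 6, 6 were higher and 4 lower (range -0.06 to 0.12). Dlat read 3565 ± 840 and 3961 ± 651, where the SD of 3 arrays exceeds the difference, and Pdhb of the pyruvate complex 7082 ± 329 and 7425 ± 669. Markers of fat moved with the numbers as well: the summed signal of the 3 measured, Ucp1, Adipoq and Cidea, was 17967 to 20704 on samples 1 to 3 and 24409 to 25387 on samples 4 to 6, and each of the 3 was split. The macrophage and leukocyte markers, 5 genes, summed to 10439.7 to 11393 and 11934 to 12957, with 1 of 5, Lyz2, split on its own. Both measured erythroid markers, Alas2 and Slc4a1, were higher as well (sums of 152 to 325 and 416 to 604), as was Sox10 of Schwann cells. Lower on all of samples 4 to 6 were Snap25 (1 of 4 neuron and heart markers) and Tnnt3 (1 of 4 of skeletal muscle). So were Epcam (1 of 4 of gut and airway epithelium) and Dio1 (1 of 6 of the thyroid). The other markers of those lists overlapped. Beside the 24.7% of all probe sets split by number, nothing is read from 1 marker of a list. The thyroid sum was 22315 to 26126.5 on samples 1 to 3 and 20922 to 22270 on samples 4 to 6. That of the neuron and heart markers was 897 to 1340 and 502 to 751, and those of muscle and of gut and airway overlapped. The part of any of these in the values of Dld, Prkar2b and Pik3cg was not tested.

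**Figure D5:**
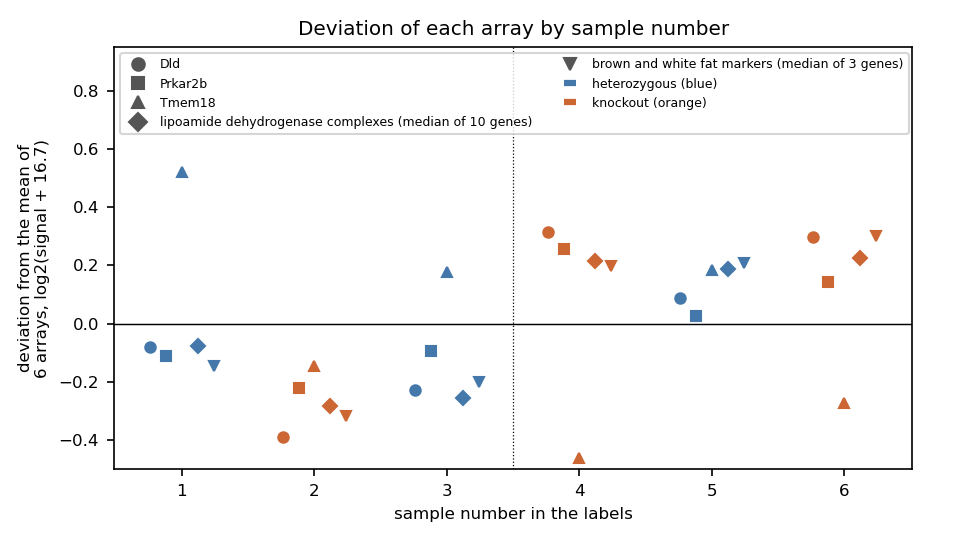
Deviation of each array from the mean of the 6 arrays, on the scale log2(signal + 16.7), by sample number, for Dld, Prkar2b and Tmem18 (brightest tested probe sets), the median of 10 lipoamide dehydrogenase partners and the median of 3 fat markers; blue is heterozygous and orange knockout. Dld, Prkar2b, the partners and the fat markers lie below 0 in samples 1 to 3 and above it in samples 4 to 6, while Tmem18 lies above 0 in the heterozygous samples and below it in the knockouts.

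Other families of the listed genes were set beside them from fixed lists, and limma called 0 genes of any. In the Golgi complex of Cog5, 3 of 7 partners were higher and 4 lower in knockouts (median -0.01), with Cog7 at -0.18 ± 0.16 and Cog6 at 0.07 ± 0.11 (SE). Of 8 protein kinase A subunits and anchors 5 were higher (median 0.01), with Akap9 at -0.09 ± 0.12 and Akap12 at -0.05 ± 0.08, and Prkar2a, the paralog of Prkar2b, at 0.02 ± 0.09. The phosphoinositide 3-kinases had 4 higher and 4 lower (median 0.01), with the leukocyte isoform Pik3cd at 0.40 ± 0.21 and Pik3ca at -0.12 ± 0.10. The writer complex of Cbll1 had 2 of 7 higher (median -0.02), with Rbm15 at 0.15 ± 0.15 and Rbm15b at -0.10 ± 0.16. Bcap31 stood at 0.06 ± 0.08 and the translocon subunit Sec61a1 at -0.08 ± 0.13 in a list of 4 with 1 higher (median -0.05). Of the Slc26 family 5 of the 9 listed were measured, 2 of them higher (median -0.04), with Slc26a10 at 0.43 ± 0.29 and the sulphate transporter Slc26a2 at -0.11 ± 0.17. Partners and targets of Hbp1 had 2 of 9 higher (median -0.06), with Mycn at the value given above and the methyltransferase Dnmt1 at -0.09 ± 0.10. By sample number, beside the 11.6% of all probe sets that were higher and the 24.7% split either way, samples 4 to 6 were higher without overlap in 2 of the 8 protein kinase A genes (Prkaca and Akap1), in 1 with 2 lower among the 8 phosphoinositide 3-kinases, in 1 with 1 lower in the Golgi complex and in the list of Bcap31, and in 1 of the writer complex and of the Slc26 family, and were lower in 3 of the 9 genes of Hbp1.

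The probe sets whose 6 values were most like those of Tmem18 among 23253 tested ones with a single symbol were Meltf 1419755_at (Pearson r = 0.98, 6 arrays), Isy1 1459728_at (0.97) and Cdk12 1425556_at (0.97). Meltf, a relative of transferrin at the cell surface, read 124, 99.2 and 99.0 on the heterozygous and 89.3, 64.1 and 77.9 on the knockout arrays. The highest of so many correlations over 6 arrays is high by selection, and the values share the same arrays and scaling.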

How the data were processed

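Signals of 6 mouse expression arrays were used, 3 per genotype. The authors deposited linear intensities, 1 per probe set and array, made with GCOS per the submitters' processing notes, version and settings not given in the sources used here; RNA was amplified by the NuGEN Ovation method per the labels. After trimming 2% at each end the mean of each array was 500.002, so the arrays had been scaled to a common mean and any shift of most transcripts would be lost. Gene names came from the platform's annotation, which gives 1 symbol for 34958 of 45101 probe sets. RefSeq (GRCm38.p6) gave gene order and promoters.

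After 64 control probe sets were left out, signals were put on log2(signal + 16.7), the 25th percentile of all values. The 27022 of 45037 probe sets with a mean above the 40th percentile (a signal of 43.5) were fitted across all probe sets with limma 3.58.1 in R 4.3.3 (eBayes with a trend) and p-values adjusted by Benjamini-Hochberg; the fit was tested on simulated data. Per gene, the brightest tested probe set on average was used. Array number limits the precision. Members and lists were chosen with earlier results of these data known. Named were all listed genes, up to 2 genes per partner list and 4 per window by smallest p, the 3 probe sets most like Tmem18, and markers; genes between Tmem18 and Slc26a4 and other examples were added after values were seen. The alternatives tried were normalization by quantiles or by cyclic loess, a pseudocount 0.25 or 4 times as large, and no filter or the 60th percentile. Further ones were no trend, robust eBayes, array weights, each array left out and a Welch test. Other window sizes, the mean of a gene's probe sets and, added later, sample numbers as a covariate were also tried.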

Additional observations from a re-analysis of the deposited data

How the results depend on the processing

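The count of calls, 0 over all probe sets and 0 among the listed ones, was the same under every alternative run. Tmem18 ranged over its 16 alternatives from -0.71 with array weights to -0.47 without heterozygous 1. It was selected on this difference, and as its groups do not overlap, leaving out an array could not change its sign. Nothing is read from that sign. The median difference of the listed genes, 0.11, moved by more than the spread between arrays in 2 alternatives. These were the sample numbers as a covariate (0.037) and, further still, leaving out knockout 4 (0.024). With 1 array left out the median ranged from 0.024 to 0.101. The window median stayed between -0.03 and 0.03 and changed sign in 7 alternatives. Of the 15 tested probe sets 9 changed sign in at least 1 alternative and 6 in none; the cause was not tested. No paired analysis was run, because the labels state no pairing and the genotypes share no sample number. Slc26a3, Gpr22 and Slc26a4 lie below background, where no difference can be told.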
